A study of Mus musculus with 14 samples.

Results

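The Hox cluster genes were followed through the in vitro differentiation of mouse ES cells into motor neurons and in newborn spinal tissue. The 38 genes were taken by symbol, through the RefSeq identifiers of the RNA-seq tables, and all 38 were found among the 23152 loci of each table. They comprise 10 members in the Hoxa cluster, 10 of Hoxb, 9 of Hoxc and 9 of Hoxd. Poly-A RNA was sequenced from the JM8 ES line labelled WT and from *Taf9b* KO ES cells of a single clone, Taf9b_BG10, on a C57BL/6 background. In this clone a LacZ-Neo cassette stands in place of the coding exons of *Taf9b*, a gene on chromosome X that encodes a core promoter factor. As ES cells both lines were grown on feeder layers of mouse embryonic fibroblasts. Both lines were also sequenced as embryoid bodies (EB) after 2, 4 and 6 days with retinoic acid and the smoothened agonist SAG. Newborn lumbar spinal column, dissected whole, was sequenced from WT and *Taf9b* KO littermates, newborn spinal cord from WT mice, and TAF9B and RNA POL2 were mapped by ChIP-seq in embryoid bodies enriched for motor neurons (EB-MN), a mixed population, of the HBG3 line, which carries an *Mnx1*-GFP reporter, after 8 days.

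Hox genes encode homeodomain transcription factors that give cells along the head-to-tail axis their position. Within each cluster the genes lie in the order of their numbered paralogue groups, and genes of low number, at the 3′ end, are switched on earlier and further forward than genes of high number, at the 5′ end. Retinoic acid, bound to its receptors, switches on the low-numbered genes in neural cells, and in the spinal cord different Hox genes mark the brachial, thoracic and lumbar segments and the motor neuron columns that arise there. In the text below the 14 genes of paralogue groups 1 to 5 are called the 3′ genes, the 12 genes of groups 6 to 9 the central genes, and the 12 genes of groups 10 to 13 the 5′ genes.

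There was 1 library per condition, so no spread between replicates exists, no difference between conditions was tested and no p-value is given. Levels are in FPKM, a read count scaled to transcript length and library size, and the read depth behind them is unknown. A gene counted as expressed above 1 FPKM, and as higher or lower when it was expressed in at least 1 library of a pair and differed more than 2-fold. *Taf9b* itself went against the labels in culture: it was at 0.537, 0.516, 1.96 and 1.37 FPKM in the WT-labelled libraries of ES cells and of EB day 2, 4 and 6, and at 3.06, 4.08, 4.27 and 4.01 FPKM in those labelled KO. In spinal column it was at 6.65 FPKM in the WT-labelled library and 3.31 FPKM in the KO-labelled library. The tables give 1 value for the whole *Taf9b* locus. Every direction below therefore refers to the labels alone. In these bulk samples, fewer cells of a type and less RNA per cell cannot be told apart.

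The sequences under the strongest TAF9B peaks of the Hoxb, Hoxc and Hoxd clusters, and at the end of the Hoxb peak whose window holds a pair of retinoic acid receptor hexamers, are shown because the ChIP results below turn on them. They were read on the plus strand of mm9. Capitals mark matches to AGGTCA and AGTTCA and to GGGTCA and GGTTCA, the hexamers bound by retinoic acid receptors, on either strand, and in the *Hoxd1* sequence a CCAAT box read on the minus strand. No capitals stand in the *Hoxc4* sequence, which held no match. The *Hoxb6* sequence is the central 300 bases of its peak, and the *Hoxd1* sequence is the part of its peak upstream of the transcript.
Hoxb6 intron, chr11:96155946-96156245: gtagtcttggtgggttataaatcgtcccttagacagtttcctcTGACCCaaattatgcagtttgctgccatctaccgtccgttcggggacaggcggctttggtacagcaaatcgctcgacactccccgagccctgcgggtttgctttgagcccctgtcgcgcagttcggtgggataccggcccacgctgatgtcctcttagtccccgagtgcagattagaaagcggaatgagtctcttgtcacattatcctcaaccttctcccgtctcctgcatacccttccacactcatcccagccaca
Hoxb3, chr11:96202543-96202572: caatctcGGTTCAagaagAGTTCAcaagct
Hoxc4 intron, chr15:102860548-102860843: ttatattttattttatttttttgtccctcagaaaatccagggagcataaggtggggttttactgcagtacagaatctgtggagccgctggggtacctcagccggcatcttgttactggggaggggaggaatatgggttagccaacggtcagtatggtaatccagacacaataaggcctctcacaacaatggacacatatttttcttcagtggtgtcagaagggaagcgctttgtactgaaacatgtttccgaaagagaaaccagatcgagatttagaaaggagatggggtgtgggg
Hoxd1 promoter, chr2:74600863-74601036: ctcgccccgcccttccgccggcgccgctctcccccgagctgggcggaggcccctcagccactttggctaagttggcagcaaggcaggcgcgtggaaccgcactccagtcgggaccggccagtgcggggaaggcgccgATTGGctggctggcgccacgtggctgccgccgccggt

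Hox genes were nearly silent in ES cells and in EBs after 2 days. In ES cells, 2 of 38 were above 1 FPKM in the WT-labelled library, where 51.3% of all loci were, and 1 of 38 in the KO-labelled library, beside 51.2% of loci. The ES cell exceptions were *Hoxd13*, the last gene of its cluster, at 1.85 and 2.03 FPKM, and *Hoxd8* at 1.06 and 0.831 FPKM in the order WT and KO. At EB day 2 no member was above 1 FPKM in the WT-labelled library, beside 50.6% of loci, and 2 were in the KO-labelled library, beside 50.5%. These were *Hoxc13*, at 0.855 FPKM in the WT-labelled library and 1.17 FPKM in that labelled KO, and *Hoxd13*, at 0.785 and 1.48 FPKM. None of the 2 members expressed in each pair differed more than 2-fold between the labels. The background in all expressed loci was small as well, with 0.540% higher and 0.590% lower in ES cells and 1.19% higher and 1.40% lower at EB day 2. The 38 values summed to 11.6 and 12.4 FPKM in ES cells and to 4.19 and 6.40 FPKM at EB day 2, in the order WT and KO. Markers of cartilage and bone summed to 161 and 173 FPKM in ES cells and to 13.5 and 17.4 FPKM at EB day 2. The part of feeder cells in the Hox values of ES cells was not tested.

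**Figure D1:**
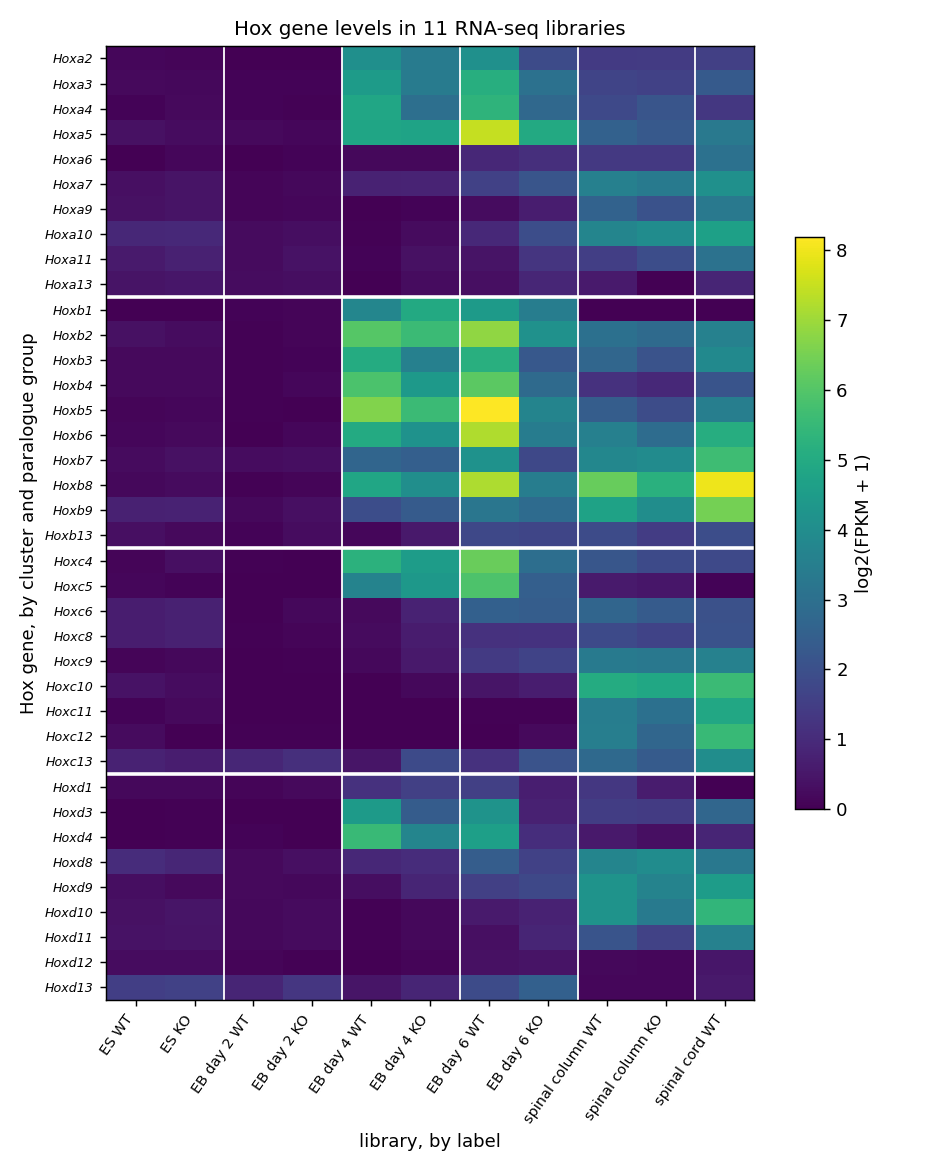
Level of each of the 38 Hox genes (rows, ordered by cluster and paralogue group) in the 11 RNA-seq libraries (columns), as log2(FPKM + 1). ES and EB day 2 libraries are dark throughout. Most 3′ genes are bright at EB day 4 and in the WT-labelled library of day 6, *Hoxd1* being an exception, and most central and 5′ genes are bright in spinal column and cord, where *Hoxa13*, *Hoxd12* and *Hoxd13* stay dark.

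At EB day 4 the 3′ genes were expressed and the 5′ genes, apart from *Hoxc13* in the KO-labelled library, were not. In the WT-labelled library, 18 members were above 1 FPKM, beside 50.7% of loci, and these were all 14 of the 3′ genes and 4 central genes. None of the 12 genes of groups 10 to 13 was. *Hoxb5*, a 3′ gene that marks hindbrain and cervical cord, had the highest level at 98.1 FPKM. *Hoxb2*, which patterns the hindbrain, followed at 64.8 FPKM, then *Hoxb4* at 57.7 FPKM and *Hoxd4* at 45.9 FPKM. The lowest of the 3′ genes was *Hoxd1* at 1.27 FPKM. The 3′ genes held 87.0% of the summed FPKM of the members and the 5′ genes 0.193%. In the KO-labelled library, 20 members were above 1 FPKM, beside 53.0% of loci, with 84.1% of the sum in the 3′ genes and 1.58% in the 5′ genes.

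By EB day 6 the WT-labelled library had the highest summed Hox level of the series, with the caveat that the tables were normalized separately. There, 27 members were above 1 FPKM, beside 53.3% of loci, and all 38 values summed to 1317 FPKM against 546 FPKM at day 4. *Hoxb5* stood at 291 FPKM, *Hoxa5* at 175 FPKM, *Hoxb6* at 147 FPKM, *Hoxb8* at 145 FPKM and *Hoxb2* at 114 FPKM. The Hoxb cluster alone held 64.4% of the sum, Hoxa 20.4%, Hoxc 11.1% and Hoxd 4.03%. The share of the 3′ genes was 73.9% and that of the central genes 25.4%, while the 5′ genes had 0.711%. *Hoxd13* was the highest 5′ gene at 2.66 FPKM.

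The change from day 4 to day 6 ran differently in the libraries of each label. The values of the 2 days come from separately normalized tables. Among the WT-labelled libraries, 17 of the 27 members expressed on either day were more than 2-fold higher on day 6, beside 17.0% of expressed genes, and none was lower, beside 9.94%. Of these 17, 9 passed 1 FPKM on day 6 only, and of the 18 members above it on both days, 8 were higher and none lower, beside 11.2% and 8.25% of genes. *Hoxa5* went from 26.9 to 175 FPKM, *Hoxc5* from 11.6 to 58.5 FPKM and *Hoxb8* from 28.0 to 145 FPKM, whereas *Hoxa2* stayed at 16.0 and 16.1 FPKM. Among the KO-labelled libraries, 10 of 30 expressed members were higher on day 6, beside 12.4%, and 11 were lower, beside 10.9%. The 11 lower genes were all 3′ genes, for instance *Hoxb5*, at 47.3 and 11.99 FPKM, and *Hoxd4*, at 12.4 and 1.11 FPKM. The 10 higher genes were all central or 5′ genes, among them *Hoxa10*, at 0.182 and 2.86 FPKM, and all 10 passed 1 FPKM on day 6 only. Of the 18 members above it on both days, none was higher and 9 were lower, beside 8.72% and 8.23%. In the KO-labelled library of day 6, 28 members were above 1 FPKM, beside 53.5% of loci, and the sum was 172.5 FPKM, against 318 FPKM at day 4. Whether the change itself differed between the labels was not tested.

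The study set WT against *Taf9b* KO cells, and the libraries are compared here by these labels. At EB day 4, 20 members were expressed in at least 1 library, and 7 of them were more than 2-fold lower in the KO-labelled library, where 4.46% of all expressed loci were. All 7 were 3′ genes: *Hoxa3*, *Hoxa4*, *Hoxb3*, *Hoxb4*, *Hoxb5*, *Hoxd3* and *Hoxd4*. *Hoxd3* had the lowest ratio, at 21.1 FPKM in the WT-labelled library and 4.17 FPKM in the KO-labelled library (log2 ratio -2.34), followed by *Hoxa4*, at 27.9 and 6.93 FPKM (-2.01), and *Hoxd4*, at 45.9 and 12.4 FPKM (-1.89). *Hoxb4*, which together with its paralogues specifies the caudal hindbrain, was at 57.7 and 20.3 FPKM (-1.51). Its neighbours *Hoxb3* and *Hoxb5* were at 31.8 and 98.1 FPKM in the WT-labelled library and at 10.96 and 47.3 FPKM in the KO-labelled library, and *Hoxa3* was at 21.5 and 9.69 FPKM. Higher were 2 of the 20, beside 12.1% of all expressed loci. These were *Hoxb1*, the marker of rhombomere 4, at 12.6 and 30.8 FPKM (1.29), and *Hoxc13*, the last gene of the Hoxc cluster, at 0.373 and 2.59 FPKM (2.80).

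The remaining 11 expressed members of day 4 lay within 2-fold. *Hoxa5* was nearly level, at 26.9 and 25.8 FPKM, and *Hoxb2*, *Hoxb6* and *Hoxb8* were at 64.8, 31.2 and 28.0 FPKM in the WT-labelled library and at 46.5, 16.9 and 15.5 FPKM in the KO-labelled library. *Hoxa2* was at 16.0 and 9.51 FPKM and *Hoxc4* at 37.3 and 22.1 FPKM. Higher within that limit was *Hoxc5*, at 11.6 and 19.4 FPKM. The low-level members *Hoxb7*, *Hoxb9*, *Hoxd1* and *Hoxd8* were at 5.40, 2.86, 1.27 and 0.893 FPKM in the WT-labelled library and at 4.52, 4.06, 1.94 and 1.07 FPKM in the KO-labelled library. Over the 20 members the median log2 ratio was -0.75, and that of all expressed loci was -0.03. With the limit at 0.1 FPKM the median turned to 0.38 over 34 members, of which 14 were higher and 7 lower, beside 17.0% and 5.71% of loci. Of the 18 members above 1 FPKM in both libraries, 7 were lower, beside 3.42% of loci, and 1 was higher, beside 7.56%. Of the 18 members not expressed on this day, none exceeded 1 FPKM in either library, and the highest was *Hoxd9* at 0.799 FPKM in the KO-labelled library.

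At EB day 6 all of the 3′ genes were lower in the KO-labelled library. Of the 30 members expressed in at least 1 library, 18 (60.0%) were more than 2-fold lower in the KO-labelled library, beside 9.93% of all expressed loci, and 3 of 30 were higher, beside 10.5%. The 18 included each of the 14 genes of groups 1 to 5. *Hoxb5* was at 291 FPKM in the WT-labelled library and 11.99 FPKM in the KO-labelled library, a 24.3-fold lower level. *Hoxd3* was at 17.6 and 0.698 FPKM, 25.2-fold lower, and *Hoxd4* at 23.7 and 1.11 FPKM, 21.4-fold lower. The 3′ genes of the Hoxa cluster ran from 4.58-fold lower for *Hoxa3*, at 33.8 and 7.37 FPKM, to 6.75-fold lower for *Hoxa4*, at 39.0 and 5.78 FPKM. Between them lay *Hoxa2*, at 16.1 and 2.68 FPKM, and *Hoxa5*, at 175 and 30.5 FPKM. The remaining Hoxb genes of this band, *Hoxb2*, *Hoxb3* and *Hoxb4*, were at 114, 34.8 and 68.3 FPKM in the WT-labelled library and at 16.6, 3.77 and 6.18 FPKM in the KO-labelled library. *Hoxc4* and *Hoxc5*, whose products are found in cervical and brachial cord, were at 78.6 and 58.5 FPKM and at 6.81 and 4.61 FPKM. *Hoxd1* was lower from a low level, at 1.92 and 0.611 FPKM. *Hoxb1* had the smallest difference of the 3′ genes, at 20.8 and 10.02 FPKM, 2.08-fold lower. The median log2 ratio was -2.99 for the 3′ genes and -1.92 for all 30 members, against -0.00 for all expressed loci. With the limit at 0.1 FPKM the median over the members was -0.40, with 7 of 37 higher and 18 lower, beside 14.6% and 11.8% of loci, and with 1 FPKM added to both values 1 of 30 was higher and 15 lower, beside 6.32% and 7.02%. *Hoxb1*, *Hoxd1* and *Hoxd8* were then within 2-fold, at 1.98, 1.81 and 1.74-fold lower, so that 12 of the 14 3′ genes remained past it. *Hoxd3* and *Hoxd4* were then 10.95 and 11.7-fold lower, and *Hoxb5* 22.5-fold lower. *Hoxa3* to *Hoxa6* share a locus in the tables, as do *Hoxd3* and *Hoxd4*, *Hoxc5* overlaps *Mir615* and *Hoxa11* an antisense gene, so the reads of these members are uncertain in their assignment.

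Central genes that were lower on day 6 lay mainly in Hoxb. The genes *Hoxb6*, *Hoxb7* and *Hoxb8* were lower in the KO-labelled library. *Hoxb6* was at 147 and 9.77 FPKM, *Hoxb7* at 17.1 and 2.41 FPKM and *Hoxb8*, which is expressed in the thoracic cord, at 145 and 9.99 FPKM in the order WT and KO. *Hoxd8* was lower too, at 4.28 and 2.03 FPKM. The other 7 expressed central genes lay within 2-fold. *Hoxc6*, a determinant of brachial motor neurons, was at 4.70 and 4.37 FPKM, *Hoxc8* at 1.23 and 1.30 FPKM, *Hoxc9*, a determinant of thoracic motor neurons, at 1.61 and 2.14 FPKM, and *Hoxb9* at 8.23 and 6.23 FPKM. *Hoxa7* was at 2.00 and 3.47 FPKM, *Hoxa6* at 0.881 and 1.16 FPKM and *Hoxd9* at 1.90 and 2.39 FPKM. Over the 11 expressed central genes the median log2 ratio was -0.11.

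Of the 5 expressed 5′ genes, 3 were higher in the KO-labelled library, from low levels. The 3 higher members were *Hoxa10*, a lumbar gene, at 0.908 FPKM in the WT-labelled library and 2.86 FPKM in the KO-labelled library, *Hoxa11* at 0.363 and 1.43 FPKM, and *Hoxc13* at 1.27 and 3.24 FPKM. *Hoxd13* was at 2.66 and 4.75 FPKM and *Hoxb13* at 2.40 and 2.29 FPKM, both within 2-fold. The 8 members below 1 FPKM in both libraries were central or 5′ genes and reached at most 0.838 FPKM, the level of *Hoxa13* in the KO-labelled library. The 5′ genes made up 10.5% of the summed FPKM in the KO-labelled library and 0.711% in the WT-labelled library. The sums themselves were 172.5 and 1317 FPKM in that order, so these shares also depend on the smaller total of the KO-labelled library. Because *Hoxa10* and *Hoxa11*, called higher, and *Hoxd1* and *Hoxd3*, called lower, passed the limit of 1 FPKM only in the library where they were high, the members above it in both libraries are also given: of these 25, 16 were lower, beside 7.14% of loci, and 1 was higher, beside 7.70%, with a median log2 ratio of -2.53.

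**Figure D2:**
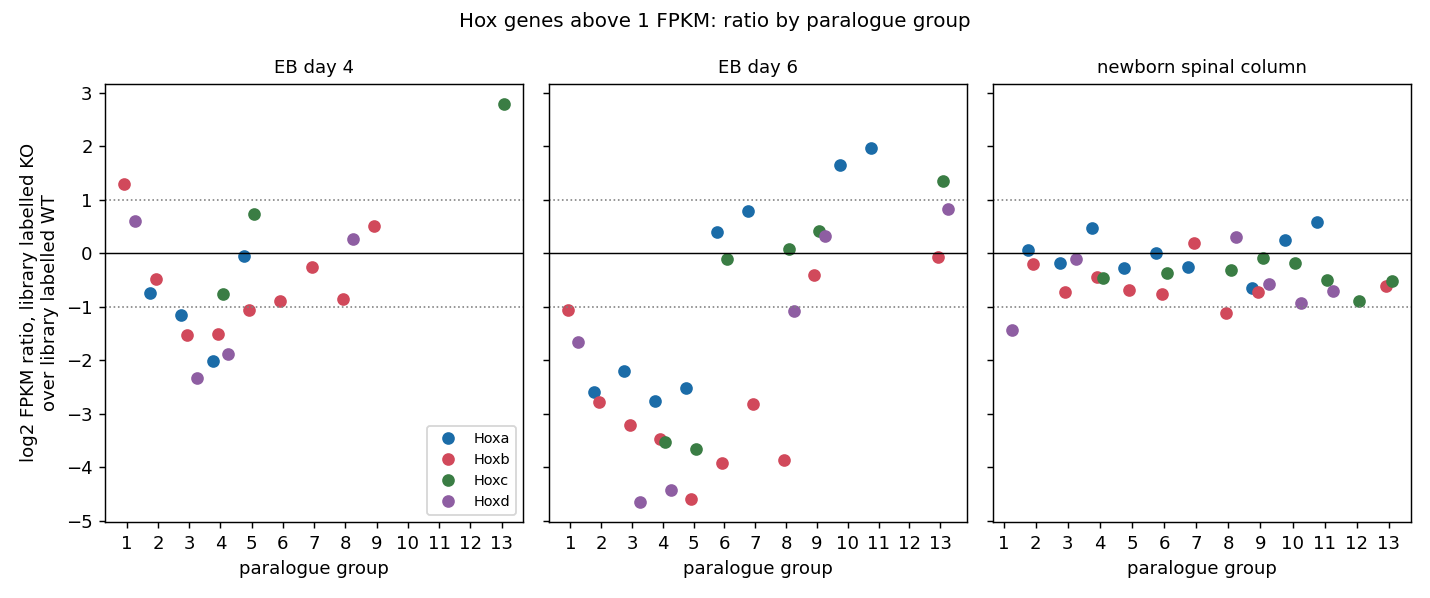
The log2 ratio of FPKM, library labelled KO over library labelled WT, of each Hox gene above 1 FPKM in at least 1 library, by paralogue group (x axis) and cluster (colour), for EB day 4, EB day 6 and newborn spinal column. Dotted lines mark 2-fold. At day 6 all 14 genes of groups 1 to 5 lie below the lower line and *Hoxa10*, *Hoxa11* and *Hoxc13* above the upper line, while in spinal column only *Hoxb8* and *Hoxd1* lie outside the lines.

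Markers of cell types differed between the same libraries. At day 4, all 4 ES cell markers were higher in the KO-labelled library, with a summed level of 26.2 FPKM in the WT-labelled library and 167 FPKM in the KO-labelled library, and all 4 markers of neural progenitors were lower, at 230 and 44.1 FPKM. Of all expressed loci, 12.1% were higher and 4.46% lower that day. Only 1 of 6 motor neuron markers was expressed then, and it was higher, the list summing to 3.99 and 7.01 FPKM. Of 4 markers of neurons 1 was lower and none higher, at 25.5 and 31.7 FPKM. At day 6 the ES cell markers summed to 293 and 823 FPKM with all 4 higher, and the progenitor markers to 84.5 and 13.2 FPKM with all 4 lower. All 6 motor neuron markers were lower at day 6, at 75.4 and 3.34 FPKM, as were all 4 markers of neurons, at 769 and 106 FPKM. At day 6, 10.5% of all expressed loci were higher and 9.93% lower. *Chat*, of the motor neuron list, was listed at 0 in the KO-labelled library. *Pou5f1*, which defines ES cells, was at 198 FPKM in the day 6 library (WT label). The 3 mesoderm markers were not expressed in any of these 4 libraries and summed to 0.633 to 0.838 FPKM. The part of these differences in cell makeup in the Hox ratios was not tested.

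Regulators and partners of the Hox genes are a further part of the system. Among 17 of 18 listed regulators found in the tables, 15 were expressed at day 4, of which 4 were more than 2-fold higher in the KO-labelled library, beside 12.1% of all expressed loci, and none was lower, beside 4.46%. At day 6, 15 were expressed, with 3 higher, beside 10.5%, and 2 lower, beside 9.93%. *Cdx1*, a homeobox gene that activates Hox genes of the trunk, was at 1.54 FPKM in the WT-labelled library and 18.8 FPKM in the KO-labelled library at day 4 and at 17.7 and 78.1 FPKM at day 6. *Cdx2*, of the same family, was at 0.289 and 1.15 FPKM and at 0.721 and 3.68 FPKM. The retinoic acid receptor gene *Rarg* was at 7.32 and 23.8 FPKM on day 4 and at 21.3 and 62.6 FPKM on day 6. *Rarb*, a receptor gene that retinoic acid induces, was at 48.0 and 30.2 FPKM on day 4 and at 27.1 and 14.8 FPKM on day 6, within 2-fold each time.

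*Cyp26a1*, which encodes an enzyme that degrades retinoic acid, was lower in the KO-labelled library in ES cells, at 1.19 and 0.193 FPKM in the order WT and KO, and at EB day 2, at 3.89 and 0.209 FPKM. It was within 2-fold at day 4, at 96.2 and 77.5 FPKM, and lower again at day 6, at 173 and 68.0 FPKM. *Gdf11*, a secreted factor that promotes the shift to 5′ Hox genes, was lower as well, at 12.2 and 2.12 FPKM. Of 10 genes for TALE homeodomain proteins and other cofactors of Hox proteins, all were expressed on both days, and none was higher. Lower were 1 at day 4, beside 4.46% of all expressed loci, and 6 at day 6, beside 9.93%. *Meis1* was at 44.8 FPKM in the WT-labelled library and 8.68 FPKM in the KO-labelled library on day 6, and *Pbx3* at 20.4 and 3.78 FPKM. Of the 9 genes that flank the clusters, 7 were expressed at day 6. Of these, *Skap1*, next to the Hoxb cluster, was lower, at 1.31 and 0.364 FPKM, as was *Smug1*, near the Hoxc cluster, at 11.5 and 5.73 FPKM, while *Ttll6* was higher at 0.620 and 1.40 FPKM. *Mtx2*, beyond the Hoxd cluster, was at 59.4 and 42.9 FPKM. Of 7 anterior neural genes, 4 were expressed on day 6 and none was past 2-fold.

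In newborn spinal column most members lay within 2-fold between the labels. The 38 values summed to 324 FPKM in the WT-labelled library and 232.5 FPKM in the KO-labelled library. Above 1 FPKM were 32 members in the WT-labelled library, beside 58.7% of loci, and 30 in the KO-labelled library, beside 58.9%. Of the 32 expressed in at least 1 library, none was higher, beside 9.05% of all expressed loci, and 2 (6.25%) were lower, beside 8.54%, a share near that of all loci. *Hoxb8* was at 77.1 FPKM in the WT-labelled library and 35.6 FPKM in the KO-labelled library, and *Hoxd1*, which passed 1 FPKM in the WT-labelled library only, at 1.51 and 0.556 FPKM. Of the 30 members above 1 FPKM in both libraries, *Hoxb8* alone was past 2-fold, where 6.36% of loci were higher and 6.60% lower. Of the 32 ratios, 26 were below 0 on the log2 scale and 6 above it, with a median of -0.40 against 0.06 for all expressed loci. With a limit of 1.5-fold, 11 of the 32 were lower, beside 19.2% of all expressed loci, and none was higher, beside 22.0%. The largest differences within the limit were those of *Hoxd10*, a lumbar gene, at 17.5 and 9.12 FPKM, and *Hoxc12*, at 10.3 and 5.56 FPKM. *Hoxc10*, which marks lumbar motor neurons, was at 31.8 and 28.1 FPKM. The highest ratio was that of *Hoxa11*, at 1.89 and 2.83 FPKM, and the other 5 members with ratios above 0 were *Hoxa4*, *Hoxd8*, *Hoxa10*, *Hoxb7* and *Hoxa2*. Members of 10 FPKM and more in the WT-labelled library also included *Hoxb9*, *Hoxd9*, *Hoxb7*, *Hoxa10* and *Hoxd8*, at 25.2, 17.4, 12.8, 12.4 and 12.1 FPKM there and at 15.3, 11.7, 14.6, 14.7 and 14.9 FPKM in the KO-labelled library. *Hoxb6*, *Hoxa7* and *Hoxc11* were at 10.9, 10.8 and 10.1 FPKM and at 6.47, 9.07 and 7.16 FPKM. The other 18 expressed members lay between 1.23 and 9.17 FPKM in the WT-labelled library. The medians by cluster were -0.68 for Hoxb, -0.64 for Hoxd, -0.42 for Hoxc and -0.00 for Hoxa. The 6 members not expressed reached at most 0.512 FPKM, the level of *Hoxa13* in the WT-labelled library.

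The tissue of the spinal column holds more than neural cells. At most 1 gene of each marker list was past 2-fold, where 9.05% of all expressed loci were higher and 8.54% lower. Of 5 markers of cartilage and bone, 1 was lower in the KO-labelled library and none higher, with summed levels of 1594 and 845 FPKM in the order WT and KO. Of 5 markers of skeletal muscle, 1 was higher, with summed levels of 538 and 1114 FPKM, *Acta1* being listed at 0 in both. Of 4 markers of neurons, 1 was lower, with summed levels of 661 and 429 FPKM, and of 6 of motor neurons, 1 was lower, at 34.9 and 17.8 FPKM. *Alas2*, the single blood marker found in the tables, was at 17.0 and 29.6 FPKM, and the 3 kidney and gut markers summed to 8.70 and 2.42 FPKM, with 1 lower, the only 1 expressed. Of 4 markers of neural progenitors 1 was lower, with summed levels of 9.32 and 4.63 FPKM. Of 4 ES cell markers 1 was higher, with sums of 17.4 and 21.7 FPKM, and of 3 mesoderm markers 1 was higher, with sums of 6.25 and 6.03 FPKM. The part of these differences in the Hox ratios was not tested.

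In newborn spinal cord the central and 5′ genes led. In this library, 31 members were above 1 FPKM, beside 56.6% of loci. *Hoxb8* had by far the highest level at 252 FPKM, followed by *Hoxb9* at 88.2 FPKM, *Hoxb7* at 48.7 FPKM, *Hoxc10* at 46.9 FPKM, *Hoxc12* at 45.0 FPKM and *Hoxd10* at 41.0 FPKM. Further central and 5′ genes above 20 FPKM were *Hoxb6*, *Hoxc11*, *Hoxa10* and *Hoxd9*, at 33.6, 29.3, 24.4 and 21.8 FPKM. Of the brachial and thoracic determinants, *Hoxc6* was at 3.08 FPKM, *Hoxc8* at 3.19 FPKM and *Hoxc9* at 11.2 FPKM. The highest 3′ gene was *Hoxb3* at 13.9 FPKM, followed by *Hoxb2* at 11.1 FPKM and *Hoxb5* at 10.4 FPKM. The central genes held 63.5% of the sum, the 5′ genes 28.4% and the 3′ genes 8.09%. In spinal column labelled WT these shares were 58.7%, 29.8% and 11.4%. *Hoxb1* was listed at 0 in spinal cord and in both spinal column libraries, and *Hoxc5*, at 58.5 FPKM in the EB day 6 library (WT label), was at 0.0610 FPKM in spinal cord, in separately normalized tables.

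**Figure D3:**
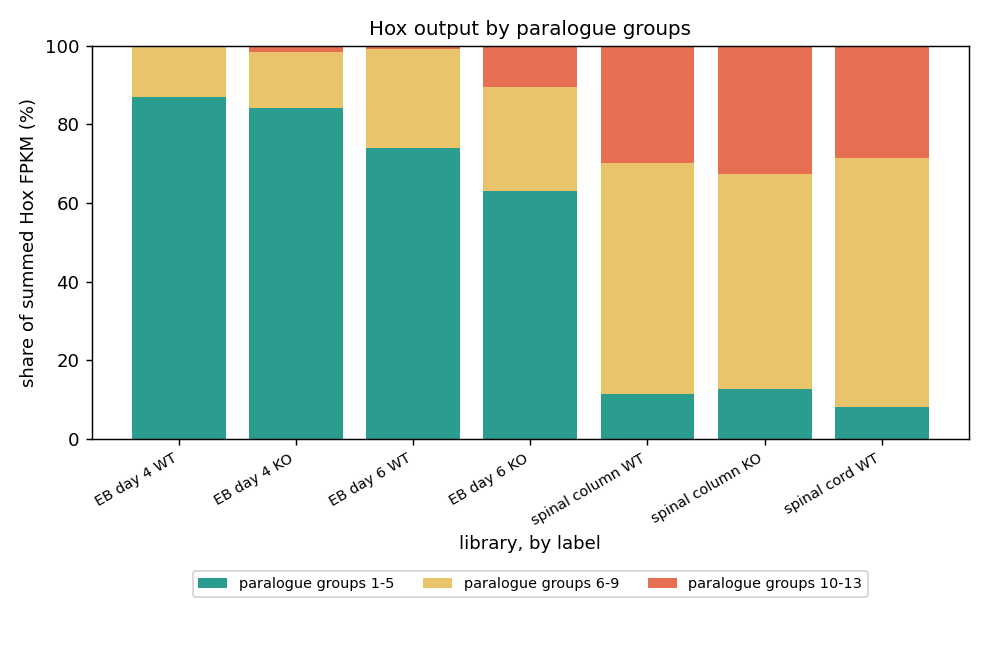
Share of the summed FPKM of the 38 Hox genes that came from paralogue groups 1 to 5, 6 to 9 and 10 to 13, in percent, for the EB day 4, EB day 6, spinal column and spinal cord libraries. Groups 1 to 5 hold 87.0% at EB day 4 and 73.9% at EB day 6 in the WT-labelled libraries, and 8.09% in spinal cord.

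Against ES cells labelled WT, listed in the same table, 32 members were expressed in at least 1 library. Higher in spinal cord were 31 of them (96.9%), beside 30.4% of all expressed loci, and 1 was lower, beside 35.7%. Of the 31, 30 passed 1 FPKM in spinal cord only, and the lower member passed it in ES cells only, so that *Hoxd8* alone, at 1.15 and 8.74 FPKM in the order ES cells and spinal cord, was above it in both. The median log2 ratio was 5.13, against -0.26 for all expressed loci. *Hoxb8* was at 0.135 FPKM in ES cells, 1868-fold lower than in spinal cord. *Hoxa6* and *Hoxd3* were listed at 0 in ES cells and at 7.38 and 5.45 FPKM in spinal cord. The lower gene was *Hoxd13*, at 2.02 FPKM in ES cells against 0.471 FPKM in spinal cord. The part of feeder cells in this ES cell value was not tested. The ES cell library labelled WT is listed in both tables, and across the members its values were 1.09 times higher beside spinal cord. Hox cofactors followed, with 7 of 10 higher and none lower, for instance *Meis1* at 0.466 and 20.2 FPKM in the order ES cells and spinal cord. Of 15 expressed regulators, 9 were lower and 5 higher. *Gdf11*, at 0.999 and 8.72 FPKM, and *Rarb*, at 0.141 and 3.59 FPKM, were among the higher. The Polycomb genes *Ezh2*, *Eed* and *Suz12*, whose products repress Hox clusters, were lower in spinal cord, *Ezh2* at 87.0 and 4.12 FPKM. *Hotair*, a non-coding RNA gene of the Hoxc cluster, was nearly absent from ES cells, at 0.00954 FPKM, and stood at 3.12 FPKM in spinal cord. Of the 7 RNA genes of the clusters found, 2 were expressed, 1 higher and 1 lower in spinal cord. The 7 summed to 42.1 FPKM in ES cells and 3.12 FPKM in spinal cord. *Mir10a* and *Mir10b* were listed at 0 in every library, which for microRNA genes in poly-A RNA was not read as absence.

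RNA POL2 lay over long stretches of the Hox clusters. The cluster regions, from the outermost members with 5 kb on either side, were chr6:52107350-52215874 for Hoxa, chr11:96050630-96234570 for Hoxb, chr15:102746534-102872274 for Hoxc and chr2:74501367-74608200 for Hoxd in mm9. Of the 8620 RNA POL2 peaks of day 8 EB-MN, 49 lay in these regions, and they covered 28.6% of the 525 kb, beside 0.254% of the genome. RNA POL2 covered 44.2% of the Hoxa region, 42.5% of Hoxb, 12.1% of Hoxc and 8.35% of Hoxd. Peaks of 5 kb and more numbered 15 in the genome, and 5 of them were in Hox clusters. The widest of all RNA POL2 peaks spanned 59.7 kb, chr11:96155447-96215188, and held the coding bases of *Hoxb2*, *Hoxb3*, *Hoxb4*, *Hoxb5* and *Hoxb6*. Its score of 58.2 was low, at rank 7891 of 8620. On the 5′ side of the cluster from it, the peak over *Hoxb8* and part of *Hoxb7*, chr11:96143477-96150467, had the highest score in the list, 3100, which 7 peaks of the list share. In Hoxa the second widest peak of the genome, 11625 bp, covered *Hoxa2* and part of *Hoxa3*.

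Coding sequence under RNA POL2 was that of 3′ and central genes, mainly in Hoxa, Hoxb and Hoxc. At least 50% of the coding bases lay under RNA POL2 peaks in 15 of 38 members (39.5%), beside 1.33% of 22232 protein-coding genes. These 15 were *Hoxa2* to *Hoxa6*, *Hoxb2* to *Hoxb8* and *Hoxc4* to *Hoxc6*. Of them, 5 members, *Hoxb2* to *Hoxb6*, were covered by the 59.7 kb peak of low score. The comparisons below were not computed without that peak. No coding base was covered in 21 members, including all 12 of groups 10 to 13 and, of the 3′ genes, *Hoxb1*, *Hoxd1* and *Hoxd4*. *Hoxd3*, with 5.36% of its coding bases covered, had the highest cover in the Hoxd cluster. In the EB day 6 library (WT label), from another ES line and an earlier day, the 15 covered members had a median level of 58.5 FPKM (range 0.881 to 291), and the other 23 a median of 1.27 FPKM (range 0 to 23.7). The groups overlapped: *Hoxa6*, fully covered, was at 0.881 FPKM, whereas *Hoxd4* and *Hoxb1*, with no coding base covered, were at 23.7 and 20.8 FPKM. Of the 15 covered members, 13 were lower at EB day 6 in the KO-labelled library and none higher, and of the 15 other members expressed there, 5 were lower and 3 higher, where 9.93% of all expressed loci were lower and 10.5% higher. By the stricter measure of a peak midpoint within 500 bp of a transcription start site (TSS), 9 of 38 members (23.7%) had an RNA POL2 peak, beside 31.8% of protein-coding genes, and a broad peak can have its midpoint far from a TSS.

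**Figure D4:**
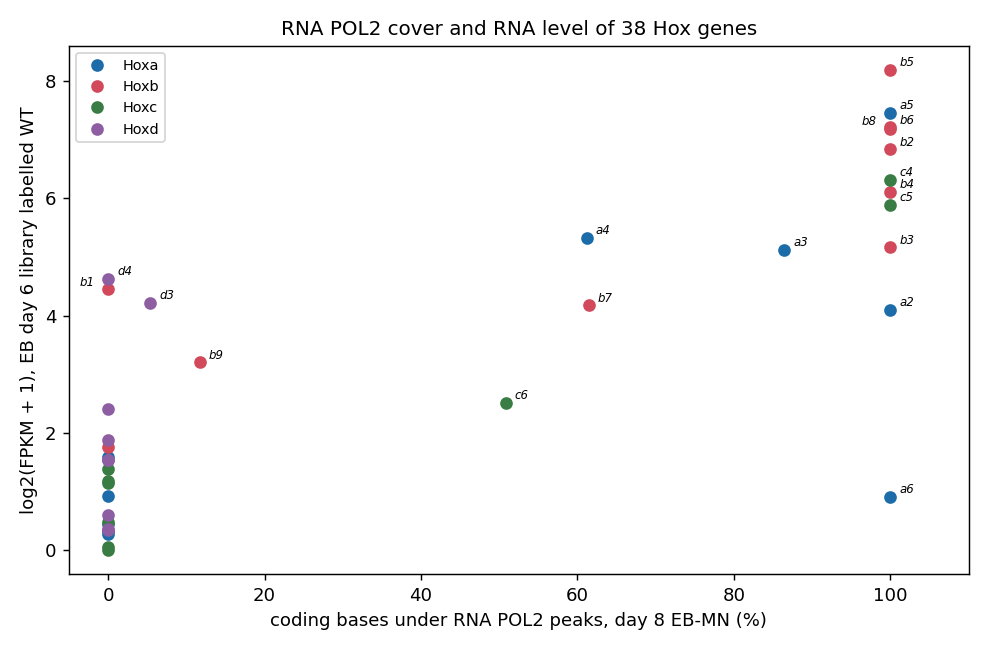
Percent of the coding bases of each of the 38 Hox genes that lay under RNA POL2 peaks of day 8 EB-MN (x axis) and its level in the EB day 6 library (WT label) as log2(FPKM + 1) (y axis), coloured by cluster. Members with full cover lie between 0.881 FPKM (*Hoxa6*) and 291 FPKM (*Hoxb5*), and among the members without cover *Hoxd4* and *Hoxb1* stand highest.

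TAF9B peaks were denser in Hoxa, Hoxb and Hoxd than in Hoxc. Of 10415 TAF9B peaks, 29 lay in the cluster regions: 15 in Hoxb, 7 in Hoxa, 6 in Hoxd and 1 in Hoxc. The density was 5.52 peaks per 100 kb over the 4 clusters, and 8.15 in Hoxb, 6.45 in Hoxa, 5.62 in Hoxd and 0.795 in Hoxc, beside 0.392 in the genome. They covered 7.34 kb in all. Scores ran from 50.8 to 296, with a median of 91.8 against 83.3 for all TAF9B peaks. Judged against the protein-coding transcripts of the members only, 4 of the 29 overlapped a coding exon and 11 a non-coding exon. A further 7 lay in introns and 7 outside these transcripts. The strongest, at chr11:96155839-96156352 in an intron of *Hoxb6*, had a score of 296 and rank 249 of 10415. It was followed by the peak at the *Hoxd1* promoter, chr2:74600863-74601158 with a score of 231, by that at a TSS of *Hoxd3*, chr2:74583552-74583855 with a score of 229, and by the single peak of the Hoxc cluster, in an intron of *Hoxc4*, with a score of 164.

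Most of these TAF9B peaks shared bases with RNA POL2 peaks. Of the 29, 19 shared 1 bp or more with an RNA POL2 peak (65.5%, 95% Wilson interval 47.3 to 80.1%), beside 33.3% of all TAF9B peaks. The interval covers counting error only. It treats the peaks as separate, but 9 of the 19 lay in the 59.7 kb RNA POL2 peak, and without these 9 the overlap was 10 of 20. The overlap was 11 of 15 in Hoxb, 5 of 7 in Hoxa, 2 of 6 in Hoxd and 1 of 1 in Hoxc. In 9 of 38 members (23.7%) a TAF9B midpoint stood no more than 500 bp from a TSS, beside 19.3% of protein-coding genes, a share near the background. These were *Hoxa2*, *Hoxa3*, *Hoxa6*, *Hoxa7*, *Hoxa10*, *Hoxb2*, *Hoxb13*, *Hoxd1* and *Hoxd3*. In 4 of them, *Hoxa7*, *Hoxa10*, *Hoxb13* and *Hoxd1*, no coding base lay under RNA POL2. The *Hoxd1* peak was the second strongest TAF9B peak of the clusters, its midpoint was 26 bp upstream of the TSS, and *Hoxd1* was at 1.92 FPKM in the EB day 6 library (WT label).

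The RNA ratios of day 6 are given side by side for members with and without TAF9B at a TSS, and the difference was not tested. Of the 9 with such a peak, 5 were lower in the KO-labelled library and 1 was higher, with a median log2 ratio of -1.65, where 9.93% of all expressed loci were lower and 10.5% higher. Of the other 21 expressed members, 13 were lower and 2 higher, with a median of -2.53. *Hoxd3* was at 17.6 FPKM in the WT-labelled library and 0.698 FPKM in the KO-labelled library, *Hoxa10* at 0.908 and 2.86 FPKM. *Hoxb5* and *Hoxc5*, lower in the KO-labelled library with log2 ratios of -4.60 and -3.67, had their nearest TAF9B peak 651 and 16450 bp from a TSS. In *Hoxb5* TAF9B peaks lay further into the gene and covered 31.8% of its coding bases, and in *Hoxb2* they covered 30.8%.

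**Figure D5:**
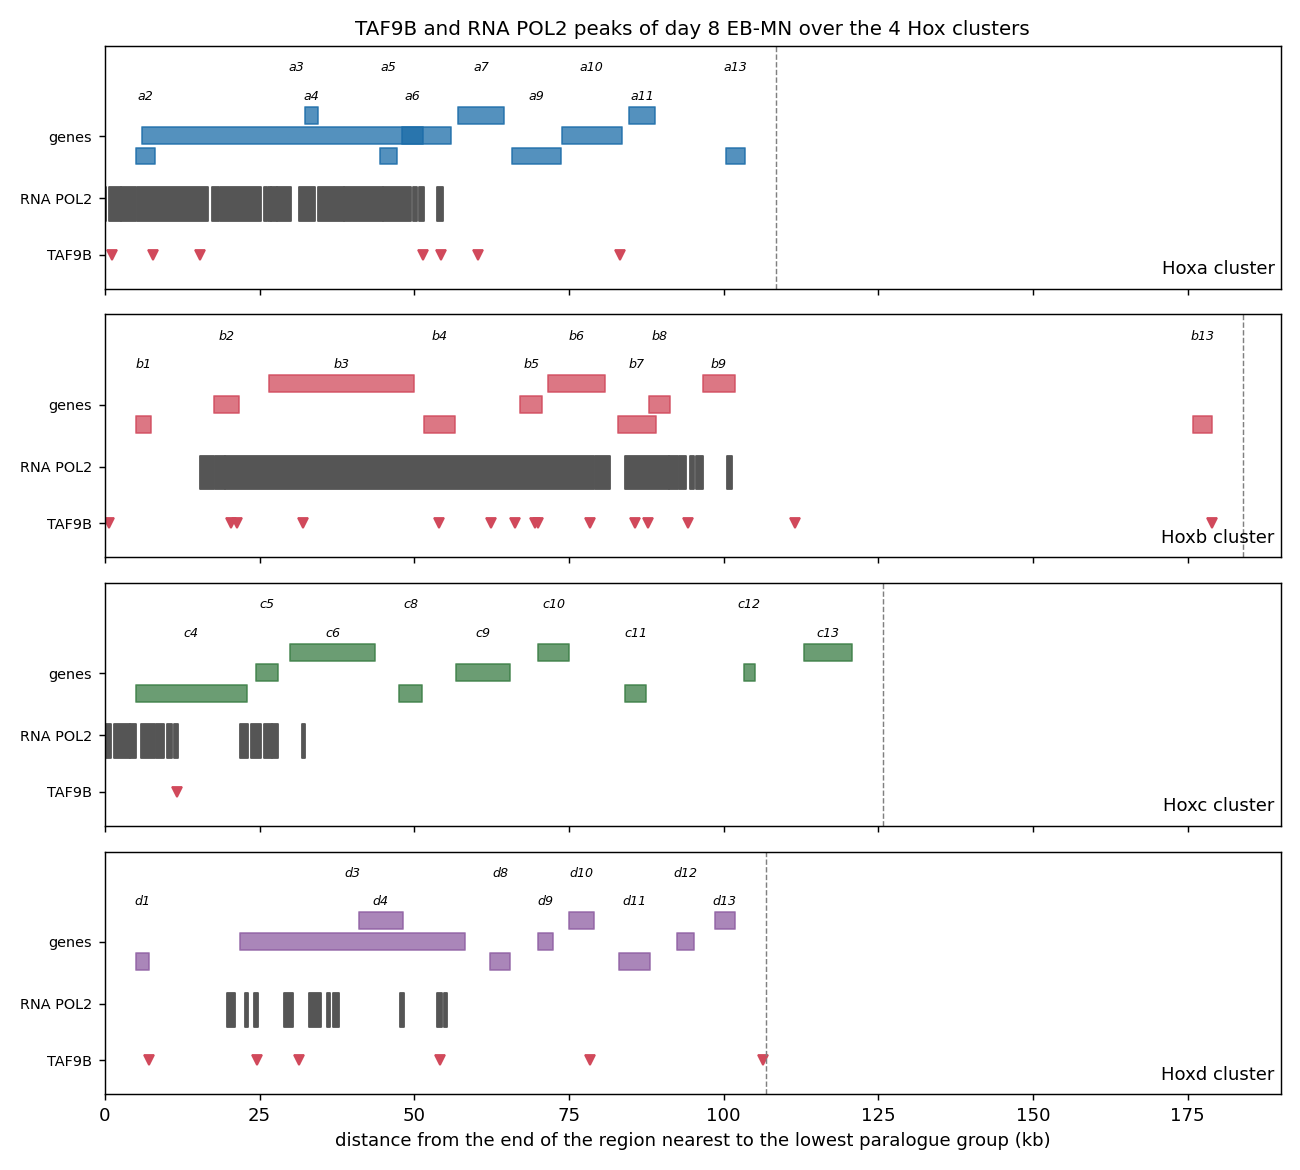
Maps of the 4 Hox cluster regions, each running from the end with the lowest paralogue group at 0 kb to the dashed line at its other end, with genes (boxes), RNA POL2 peaks (grey bars, to scale) and TAF9B peaks (triangles at midpoints) of day 8 EB-MN. RNA POL2 peaks lie over *Hoxa2* to *Hoxa6* and over *Hoxb2* to *Hoxb8*, leave *Hoxb1* free and cover no coding base of groups 10 to 13, while 15 TAF9B peaks lie in Hoxb and 1 in Hoxc.

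Motifs were counted on both strands in a window of 300 bases around the middle of each TAF9B peak. Of the 29 Hox peaks, 23 were narrower than that, so their windows include flanking sequence. A single hexamer of the retinoic acid receptor type (the 4 spelled out above) stood in the windows of 7 of the 29 Hox peaks (24.1%) and of 38.7% of all TAF9B peaks. A pair of these hexamers in the same orientation, 1, 2 or 5 bases apart as in a retinoic acid response element, stood in 1 of 29 (3.45%) and in 32 of 10402 (0.308%) of all peaks. The pair is shown by the capitals of the *Hoxb3* sequence, chr11:96202550-96202566, in the window of the peak upstream of a TSS of *Hoxb3*, chr11:96202406-96202560, whose score of 50.9 ranked 10200 of 10415. It begins inside the peak and runs past its end. TGATNNAT, a site of Hox proteins with PBX partners, stood in 4 of 29 (13.8%) and in 8.86% of all peaks. For the core promoter motifs CCAAT and TATAAA the shares of windows were 44.8% and 13.8% for Hox peaks and 39.5% and 7.42% for all peaks. A match is a description of the letters and was not tested as a site.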

How the data were processed

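The authors sequenced poly-A RNA in 11 libraries, mapped reads against RefSeq genes with TopHat and computed FPKM values and comparisons with Cuffdiff. The deposited FPKM values were used as they are, in 6 tables of 23152 loci in mm9 coordinates, and the authors' fold changes and p-values in the same tables were not used. The deposited peak scores are those of MACS, on reads that the authors mapped to mm9 with Bowtie. Versions, the number of reads, strandedness and the control used for peak calling are not given in the sources used here. The IgG ChIP library was not analysed here.

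Symbols were assigned through RefSeq accessions for 22828 loci. The members and all lists were chosen with earlier results of these data known. Log2 ratios carry no pseudocount, and a gene listed at 0 in 1 library stands below or above all measured ratios in a median. Cuffdiff treated 4 members, *Hoxa3* to *Hoxa6*, and 2 members, *Hoxd3* and *Hoxd4*, as overlapping genes of a shared locus, so reads could be split between them. All members are accounted for, those above 1 FPKM with values or counts and the others by range. Outside the members, genes of the lists were named that have a high level or a large ratio, or that define the list. The members named outside these rules, and the motifs, were chosen after their values were seen.

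TSS and coding bases are those of protein-coding transcripts of GENCODE on NCBIM37, the same assembly as mm9, and sequences were read from that assembly. Peaks counted as at a TSS when the midpoint was no more than 500 bp away, an overlap was at least 1 bp, and cluster regions had a margin of 5 kb. The overlap of all Hox TAF9B peaks with RNA POL2 carries a 95% Wilson interval. Calls were also run on simulated data, where 200 planted changes of 4-fold among well-expressed loci were all recovered with 0 false calls. With changes that far past the limit and little noise, this outcome was fixed by the setting. It says nothing about members near 1 FPKM or about the spread between libraries. The alternatives were a pseudocount of 1 FPKM, centring, other limits of level and fold, and other peak rules. Values were computed in Python 3.11.15 using numpy 2.4.6, pandas 2.3.3, statsmodels 0.14.6, pysam 0.24.0 and matplotlib 3.10.9.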

Additional observations from a re-analysis of the deposited data

Results flagged for a closer look

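*Hoxb1* differed in opposite directions on 2 days of differentiation: its log2 ratio, library labelled KO over library labelled WT, was 1.29 at EB day 4 and -1.05 at EB day 6, past 2-fold each time. With 1 FPKM added to both values the level at EB day 6 was 1.98-fold lower, within 2-fold. With 1 library per condition this difference between days was not tested.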

How the results depend on the processing

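With 1 library per condition no result could be given an error, and depth is unknown. Ratios of members near 1 FPKM rest on an unknown number of reads. No paired analysis was possible because each group has 1 library and no result comes from a test. With members above 0.1 FPKM in at least 1 library included, the median log2 ratio of EB day 4 turned from -0.75 to 0.38, that of ES cells from -0.11 to 0.14, and that of EB day 6 moved to -0.40. The numbers past 2-fold were then 6 in ES cells, 5 at EB day 2 and 21 at EB day 4, of which 14 were higher, since members of low level enter. With members above 1 FPKM in both libraries the median was 0.13 in ES cells, over 1 member, -2.53 at EB day 6 and 2.92, over 1 member, for spinal cord, and EB day 2 had no such member. Adding 1 FPKM gave a median of 3.19 for spinal cord and left 1 member past 2-fold in spinal column. A limit of 1.5-fold gave 1 member at EB day 2, which was higher, 4 higher and 11 lower at EB day 4, 15 in all, and in spinal column 11, which were lower, and 3-fold gave 4 at EB day 4 and 0 in spinal column. With scores above the median, 29 RNA POL2 peaks remained. Within 5 kb of a TSS, 19 members had a TAF9B peak and 16 an RNA POL2 peak. The other 46 values of these results kept their direction, and among them the counts of both directions together lay within 1.5 times the count reported, centring on all expressed loci included. At EB day 6 the number higher alone, 3, was 7 with the limit at 0.1 FPKM, 5 at 1.5-fold, 2 at 3-fold and 1 with 1 FPKM added. The numbers of members expressed per library, with other limits of level, moved in 22 of 33 cases.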
